A study of Mus musculus with 6 samples.

Results

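Necroptosis and death receptor signalling was followed through 10 genes, fixed by name: *Zbp1*, *Ripk1*, *Ripk2*, *Ripk3*, *Mlkl*, *Casp8*, *Birc2*, *Birc3*, *Cflar* and *Traf1*. All 10 were found among the 55335 genes of the table, and all 10 passed the filter on low values. The libraries came from bone marrow-derived macrophages (BMDMs, grown from marrow cells for 7 days in 25 ng/ml M-CSF), whose genotype is given as WT in every sample. They had been cultured for 24 h with neutrophils that were taken by magnetic sorting from spinal cord lesions at 3 dpi (days post-injury) of *Cd177* WT mice (n = 3 libraries) or of *Cd177* KO mice (n = 3 libraries), and were then sorted as Ly6G-negative cells. The methods give adult male mice and describe the KO donors as *Cd177*-/- animals, with no tissue-specific Cre named. Libraries of BMDMs alone or of neutrophils alone were not analysed here, so both groups had met injured-cord neutrophils.

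A death receptor such as the TNF receptor gathers a complex in which the kinase RIPK1 is held in a survival state by ubiquitin chains, which the ligases cIAP1 (*Birc2*) and cIAP2 (*Birc3*) attach. Where this hold is lost, caspase-8 (*Casp8*) starts apoptosis and cuts RIPK1 and RIPK3, and its inactive relative cFLIP (*Cflar*) tunes that activity. Where caspase-8 is blocked, RIPK3 phosphorylates the pseudokinase MLKL, which breaks the plasma membrane in the lytic death called necroptosis. ZBP1, a sensor of left-handed (Z-form) nucleic acid, can engage RIPK3 without a death receptor, and it is known as an interferon-inducible gene of macrophages.

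*Cd177*, the gene deleted in the donors of the neutrophils, had 0.544, 0.309 and 0.521 FPKM (fragments scaled to transcript length and to the total of the library) where labelled WT and 1.79, 1.84 and 2.28 FPKM where labelled KO. The level was thus higher with KO neutrophils, the reverse of what the labels alone would give. It was low in both groups, at percentiles 3.3 (WT) and 23.9 (KO) of the genes tested. The gene is also intact in the BMDMs themselves, so these values do not settle whether the labels are right. WT group and KO group below mean the libraries so labelled. The macrophage genes *Csf1r* (232 to 293 FPKM), *Adgre1* (218 to 309 FPKM) and *Cd68* (456 to 587 FPKM) were high in all 6 libraries. The list of 8 macrophage markers did not move as one, since *Adgre1* and *Mertk* rose as deposited (neither was called with median-of-ratios scaling), while *Cd14* (911 to 1180 against 93.7 to 109 FPKM, 10.2-fold lower) and *Fcgr1* (118 to 123 against 33.0 to 34.3 FPKM, 3.59-fold lower) fell under both scalings. Its summed level, 6630 to 7990 FPKM in the WT group and 7230 to 7920 FPKM in the KO group, consisted mostly of *Lyz2* (4460 to 6590 FPKM). The summed level of 16 neutrophil markers was 202 to 262 FPKM in the WT group and 559 to 573 FPKM in the KO group. Of the 13 that passed the filter, 11 rose as deposited, against 27.1% of all genes tested. Among those tested, *Ltf* (3.72 to 4.23 in the WT group against 34.1 to 39.9 FPKM in the KO group) and *Ngp* (10.7 to 15.3 against 105 to 110 FPKM) rose most. Both, and *Lcn2* (2.66 to 3.35 against 14.9 to 17.9 FPKM), were called higher under both scalings. *Mmp9* was not called, and *Mmp8* fell under both scalings (19.5 to 24.5 against 9.27 to 10.2 FPKM). *S100a9* made up much of the summed level, with 75.9 to 113 and 221 to 244 FPKM. *S100a8* had 56.7 to 81.3 and 94.0 to 112 FPKM and was not called with median-of-ratios scaling (adjusted p = 0.0806, limma). *Ly6g*, the gene of the antigen used to sort, was at 0 in each WT library and had 0.403 to 0.660 FPKM in the KO libraries. Lymphocyte, dendritic cell, microglia and neural lists summed to at most 1.14, 1.24, 16.7 and 7.06 FPKM in any library. In the microglia list *P2ry12* rose under both scalings (0.177 to 0.261 in the WT group against 2.52 to 7.2 FPKM in the KO group). *Tmem119* of that list (10 to 12.3 against 8.1 to 9.55 FPKM) was called lower with median-of-ratios scaling only. The part of neutrophil RNA in the results below was not tested, and in these bulk samples fewer cells of a type and less RNA per cell cannot be told apart.

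Of the 10 genes, 5 fell (*Zbp1*, *Mlkl*, *Cflar*, *Ripk3* and *Birc3*), 2 rose (*Ripk1* and *Casp8*) and 3 did not pass (*Ripk2*, *Birc2* and *Traf1*) at an adjusted p-value under 0.05 (limma on log2(FPKM + 0.5), Benjamini-Hochberg adjustment over the 13367 genes tested). Over all genes tested, 10.5% fell and 27.1% rose by the same rule, so the 2 rises among 10 genes are no more than the background share. The log2 fold change of the 10 genes, KO minus WT, had a median of -0.29, while that of all genes tested was 0.19. All libraries labelled KO lay below all those labelled WT in 6 of the genes and above them in 3, against 14.4% and 37.5% of all genes tested. The members were chosen with earlier results of these data known, so none of these comparisons with all genes is a test of the list. Scaling by median-of-ratios, which brings the median of all genes to -0.01, left 5 of the 10 called lower (16.9% of all genes) and 0 called higher (15.4% of all genes), with 0 higher at an unadjusted p-value under 0.05 as well (limma). With 1 library left out, 3 fell without WT replicate 2, KO replicate 1 or KO replicate 2, while 0 rose without WT replicate 2 or KO replicate 1 and 1 rose without WT replicate 1, KO replicate 2 or KO replicate 3. Of all 13367 genes, 1047 to 1717 fell and 2442 to 4228 rose with 1 library left out. Replicates are labelled only by number, and where they are not separate cultures the p-values measure technical spread.

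**Figure D1:**
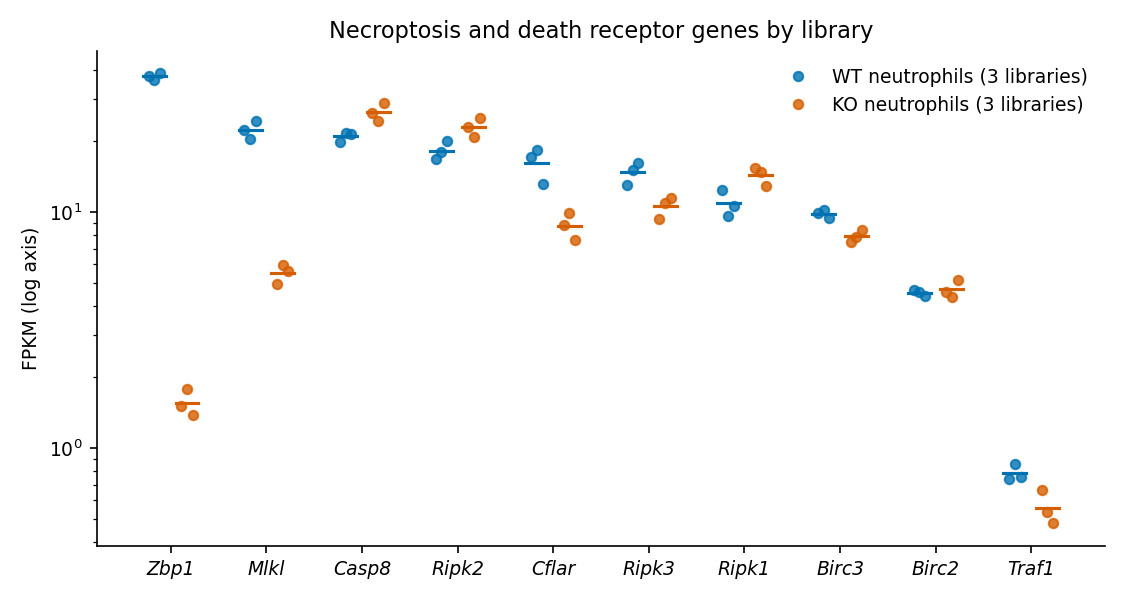
FPKM of the 10 genes on a log axis, ordered by their mean in the libraries labelled WT, with a point for each library (blue WT, orange KO, n = 3 each) and a bar for the group mean. *Zbp1* and *Mlkl* show wide gaps between the groups, from 37.6 to 1.55 and from 22.3 to 5.51 FPKM on average, while the points of *Birc2* overlap.

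The order of the levels in FPKM differed between the groups. FPKM is per length, and the length assigned to each gene is not given, so the order between genes depends on that length. In the libraries labelled WT the ZBP1 sensor was the most abundant at 36.3 to 38.7 FPKM, above the libraries of every other gene of the 10. It was followed by *Mlkl*, *Casp8*, *Ripk2*, *Cflar* and *Ripk3*, a run in which each gene overlapped the next, then by *Ripk1* and *Birc3*, which overlapped each other, and by *Birc2* and *Traf1*, which stood apart. In the libraries labelled KO, *Casp8* at 26.5 ± 2.37 FPKM and *Ripk2* at 22.9 ± 2.22 FPKM (SD, n = 3) came first and overlapped. *Mlkl* then stood seventh, overlapping *Birc2*, and *Zbp1* ninth, above *Traf1* only.

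*Zbp1* (ENSMUSG00000027514, chromosome 2, 173206612 to 173218923, minus strand, in GENCODE M21 on GRCm38, which is used for all positions) had 37.8, 36.3 and 38.7 FPKM where labelled WT and 1.5, 1.77 and 1.38 FPKM where labelled KO. The lowest WT library lay far above the highest KO library. The mean was 24.2-fold lower in the KO group, which is -4.22 on the log2 scale (KO minus WT, standard error 0.10, adjusted p = 1.68e-06, limma). Among the 13367 genes tested its rank from the lowest log2 fold change upwards was 29. Its level went from percentile 91 of the genes tested in the WT group to percentile 19.1 in the KO group.

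*Mlkl* (ENSMUSG00000012519, chromosome 8, 111311797 to 111338177, minus strand), the executor of necroptosis, had 22.3, 20.3 and 24.2 FPKM where labelled WT and 4.96, 5.95 and 5.63 FPKM where labelled KO. The groups were far apart compared with their SDs of 1.96 and 0.508 FPKM. The mean was 4.04-fold lower in the KO group, and the log2 fold change on log2(FPKM + 0.5) was -1.92 (standard error 0.11, adjusted p = 3.42e-05, limma). *Ripk3* (ENSMUSG00000022221, chromosome 14, 55784995 to 55788865, minus strand), the kinase that activates MLKL, had 13.0, 15.0 and 16.1 FPKM where labelled WT and 9.33, 10.9 and 11.5 FPKM where labelled KO. Its groups did not overlap, and it fell by 0.46 on the log2 scale (standard error 0.12, adjusted p = 0.0227, limma). This call was lost without WT replicate 2, KO replicate 1 or KO replicate 2 (adjusted p = 0.0666, 0.0814 and 0.0612, limma).

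As deposited, the other RIP kinases lay higher in the KO group. *Ripk1* (ENSMUSG00000021408, chromosome 13, 34002363 to 34037147, plus strand), the kinase shared by survival and death complexes, had 12.4, 9.65 and 10.6 FPKM where labelled WT and 15.3, 14.8 and 12.9 FPKM where labelled KO. The groups were close, with 12.4 and 12.9 FPKM as their nearest values. It rose by 0.39 on the log2 scale (standard error 0.12, adjusted p = 0.0435, limma), which was 0.20 above the median of all genes. With median-of-ratios scaling the log2 fold change was 0.17 (adjusted p = 0.328, limma), and the call was also lost without WT replicate 2 or 3 or KO replicate 1 or 2 (adjusted p between 0.0665 and 0.143, limma). *Ripk2* (ENSMUSG00000041135, chromosome 4, 16122733 to 16163647, minus strand), which serves the NOD sensors of bacterial wall fragments and not the necrosome, had 16.7, 17.9 and 20 FPKM where labelled WT and 23.0, 20.7 and 25.1 FPKM where labelled KO. Its nearest values across the groups were 20 and 20.7 FPKM, and its log2 fold change of 0.32 did not pass (95% interval 0.07 to 0.58, adjusted p = 0.0547, limma). It did pass without WT replicate 3 (0.39, adjusted p = 0.0227, limma) and as TPM (0.35, adjusted p = 0.0247, limma). Without any other single library it did not pass (adjusted p between 0.0616 and 0.159, limma). With median-of-ratios scaling the log2 fold change of *Ripk2* was 0.10 (adjusted p = 0.576, limma).

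*Casp8* (ENSMUSG00000026029, chromosome 1, 58795374 to 58847503, plus strand), the initiator caspase of death receptors, had 19.8, 21.7 and 21.3 FPKM where labelled WT and 26.2, 24.3 and 29.0 FPKM where labelled KO. It rose by 0.33 on the log2 scale (standard error 0.09, adjusted p = 0.0314, limma), and the value was 0.11 with median-of-ratios scaling (adjusted p = 0.473, limma). The call was lost as well without WT replicate 1 or 2 or KO replicate 1 or 3 (adjusted p between 0.0598 and 0.101, limma). *Cflar* (ENSMUSG00000026031, chromosome 1, 58711508 to 58758884, plus strand), the gene of cFLIP, which lies near *Casp8*, had 17.1, 18.3 and 13.1 FPKM where labelled WT and 8.79, 9.88 and 7.59 FPKM where labelled KO. Replicate 3 was the lowest in both groups, and the groups did not overlap. It fell by 0.84 on the log2 scale (standard error 0.15, adjusted p = 0.00579, limma), 1.85-fold in the means. The annotation lists 13 transcripts of *Cflar*, and these gene-level values do not separate the long and the short cFLIP forms, which differ in function.

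Of the ubiquitin ligases, *Birc3* (ENSMUSG00000032000, chromosome 9, 7848699 to 7873186, minus strand) had 9.87, 10.2 and 9.40 FPKM where labelled WT and 7.43, 7.84 and 8.37 FPKM where labelled KO. It fell by 0.30 on the log2 scale (standard error 0.09, adjusted p = 0.0336, limma), which was 0.49 below the median of all genes. The call was lost without WT replicate 1 or 2 or KO replicate 1 or 2 (adjusted p between 0.0923 and 0.131, limma). *Birc2* (ENSMUSG00000057367, chromosome 9, 7818227 to 7837064, minus strand), which lies near it, had 4.66, 4.56 and 4.40 FPKM where labelled WT and 4.60, 4.36 and 5.15 FPKM where labelled KO. These ranges overlapped, and the difference was not larger than the spread, at a log2 fold change of 0.04 (95% interval -0.19 to 0.27, adjusted p = 0.756, limma). The sign of that value changed with median-of-ratios scaling (-0.16) and without KO replicate 3 (-0.02). *Traf1* (ENSMUSG00000026875, chromosome 2, 34941750 to 34961772, minus strand), an adaptor that brings the cIAPs to TNF receptor family members, was the lowest of the 10 at 0.736, 0.859 and 0.751 FPKM where labelled WT and 0.662, 0.534 and 0.480 FPKM where labelled KO. Its groups did not overlap, yet its log2 fold change of -0.28 did not pass (95% interval -0.61 to 0.05, adjusted p = 0.158, limma), and at values near the pseudocount of 0.5 this scale understates the change.

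**Figure D2:**
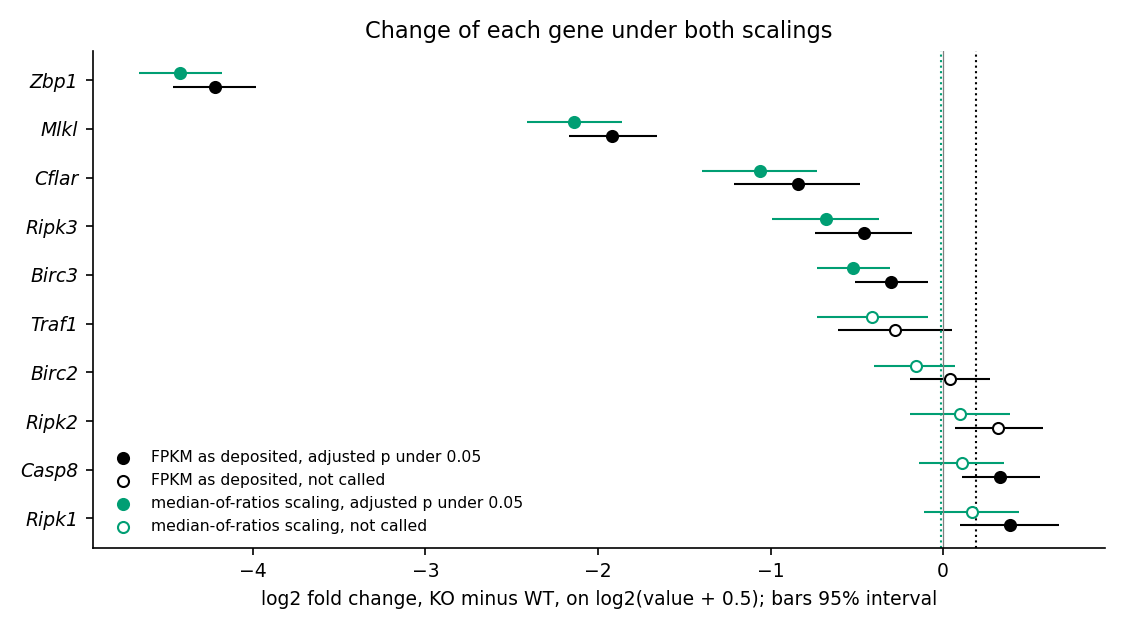
Log2 fold change (KO minus WT) of each gene with its 95% interval, from FPKM as deposited (black) and after median-of-ratios scaling (green), with filled points at an adjusted p-value under 0.05 (limma). Dotted lines mark the median of all genes tested, 0.19 and -0.01. *Zbp1*, *Mlkl*, *Cflar*, *Ripk3* and *Birc3* are filled and below 0 under both, while *Ripk1* and *Casp8* are filled as deposited only.

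Part of the sequence of several genes recurs elsewhere, and how shared reads were counted is not given in the sources used here. Of all 50-base stretches of its annotated transcripts, 7.38% in *Birc3*, 7.04% in *Cflar*, 5.54% in *Ripk1*, 4.37% in *Casp8* and 1.49% in *Birc2* also occurred in a transcript of another gene. For *Birc2* and *Birc3* these included each other. The exons of *Ripk1* overlap those of *Serpinb6a* on the opposite strand and those of *Gm17084* on the same strand, so that its value is uncertain to that extent. No such stretch was found in *Zbp1*, *Mlkl*, *Ripk3* or *Ripk2*.

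Partner genes were compared as ratios within a library, since a ratio hardly depends on the scaling between libraries. The ratio of *Mlkl* to *Ripk3* was 1.71, 1.35 and 1.51 where labelled WT and 0.531, 0.547 and 0.490 where labelled KO. In FPKM the executor was thus above its kinase in every WT library and below it in every KO library. The ratio of *Cflar* to *Casp8* was 0.864, 0.846 and 0.617 against 0.335, 0.407 and 0.261, with *Cflar* the lower in FPKM throughout and more so in the KO group. The ratio of *Birc3* to *Birc2* was 2.12, 2.23 and 2.14 against 1.62, 1.80 and 1.62, with *Birc3* the higher in FPKM in all 6 libraries. Which partner is the higher depends on the length assigned to each gene, which is not given. The annotated exons cover 12669 bases in *Cflar* and 2893 in *Casp8*. The change of a ratio between the groups does not depend on these lengths where they are the same in all libraries. On the log2(FPKM + 0.5) scale the differences were -1.46, -1.18 and -0.34, with no overlap between the groups in any of them. Each had p = 0.1 in the exact permutation test (two-sided, 3 against 3 libraries, adjusted p = 0.1 over the 3 ratios), which is the smallest this design allows.

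**Figure D3:**
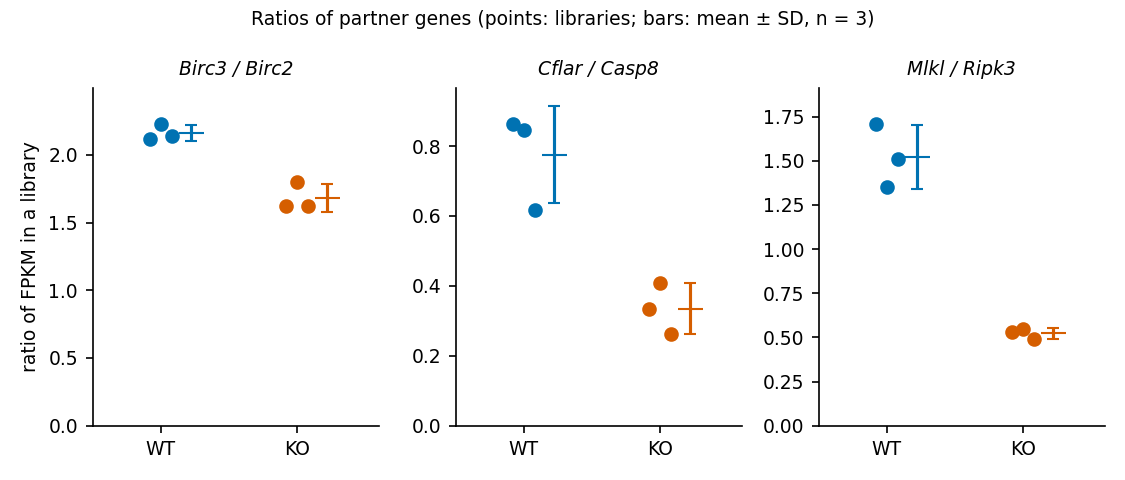
Ratio of the FPKM of partner genes in each library, for *Birc3* to *Birc2*, *Cflar* to *Casp8* and *Mlkl* to *Ripk3* (points, libraries labelled WT in blue and KO in orange, bars, mean ± SD, n = 3). The axes start at 0, and the KO points lie below the WT points in each panel, at mean ratios of 1.68 against 2.16, 0.335 against 0.776 and 0.523 against 1.52.

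Since *Zbp1* and *Mlkl* are known as interferon-inducible and *Birc3*, *Cflar* and *Traf1* as NF-kB-inducible genes, the promoters were searched for the binding motifs concerned. RefSeq promoters (250 bases before to 50 after the start, build GRCm38.p6) matched 8 of the 10 genes, all but *Zbp1* and *Ripk2*, with 10 starts in all. The letters searched, on both strands, were GAAA, any 2 bases and GAAA for the interferon-stimulated response element (ISRE, in 3.44% of all 32851 promoters), TTCNNNGAA for the STAT site GAS (8.30%), and GGGA, any 2 bases and TTCC for the kB site (1.47%). The ISRE letters occurred in 2 of the 10 member promoters, the GAS letters in 1 and the kB letters in 0. The following were chosen as the genes that fell most among those matched and the gene with the most matches, and capitals mark a motif match.
Mlkl, chr8:111338156-111338455, minus strand: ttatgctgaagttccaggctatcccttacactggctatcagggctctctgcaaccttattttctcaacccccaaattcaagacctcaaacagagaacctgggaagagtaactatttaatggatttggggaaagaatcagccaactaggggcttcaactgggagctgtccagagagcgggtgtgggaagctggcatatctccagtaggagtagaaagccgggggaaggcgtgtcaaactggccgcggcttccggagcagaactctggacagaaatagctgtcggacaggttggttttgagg
Cflar, chr1:58711241-58711540, plus strand: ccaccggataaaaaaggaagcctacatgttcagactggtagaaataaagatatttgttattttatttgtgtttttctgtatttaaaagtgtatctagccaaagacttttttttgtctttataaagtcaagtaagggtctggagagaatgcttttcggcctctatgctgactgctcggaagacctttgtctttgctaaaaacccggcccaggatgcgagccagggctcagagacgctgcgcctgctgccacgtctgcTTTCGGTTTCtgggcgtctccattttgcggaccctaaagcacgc
Ripk1, the downstream start, chr13:34002624-34002923, plus strand: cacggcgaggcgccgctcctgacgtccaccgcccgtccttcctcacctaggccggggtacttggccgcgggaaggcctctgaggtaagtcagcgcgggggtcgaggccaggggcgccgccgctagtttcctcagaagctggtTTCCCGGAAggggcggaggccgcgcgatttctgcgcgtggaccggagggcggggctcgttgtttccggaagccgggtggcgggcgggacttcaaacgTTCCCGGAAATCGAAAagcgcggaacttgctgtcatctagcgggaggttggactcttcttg
In *Cflar* the capitals are an ISRE match on the opposite strand, from 6 to 15 bases after the start. In *Ripk1* the first capitals are a GAS match that begins 108 bases before the start, and the second are a GAS match that begins 11 bases before it and overlaps an ISRE match that begins 5 bases before it. *Mlkl* holds none of the 3 motifs in this window. Since the genes shown were picked by their fall or by their matches, no link between motifs and change can be read from them. A match is a description of the letters and not of binding, and no match says only that these letters are not in this window.

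A wider list of 52 pathway genes, also drawn up with earlier results of these data known, was compared in the same fit. Of these, 50 passed the filter. Among the 50, 6 fell and 10 rose (limma, adjusted p-value under 0.05), against 10.5% and 27.1% of all genes tested, with a median log2 fold change of 0.03. Median-of-ratios scaling changed this to 13 that fell and 1 that rose (*Tnfsf12*, the ligand TWEAK), at a median of -0.18 against -0.01 for all genes, and no single direction is therefore given for the list. Leaving out 1 library gave 5 to 9 that fell and 4 to 11 that rose, the latter 4 without WT replicate 1, 5 without KO replicate 1 or KO replicate 2 and 6 without WT replicate 2 or KO replicate 3. The calls over all genes then also varied, from 1047 to 1717 that fell and from 2442 to 4228 that rose.

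The counts by role are small and stand beside the same 10.5% and 27.1% of all genes as deposited, or 16.9% and 15.4% with median-of-ratios scaling, and no difference between roles was tested. Among the ligands, 2 of 3 tested fell and 1 rose under both scalings. *Tnfsf10* (the death ligand TRAIL) had 1.5, 1.65 and 1.24 FPKM where labelled WT and 0.210, 0.106 and 0.185 FPKM where labelled KO, a log2 difference of -1.55 (adjusted p = 0.000386, limma). Its means differed 8.75-fold, which the scale with its pseudocount of 0.5 understates at levels this low. *Tnf*, the ligand of TNF receptors, had 15.4 to 18.9 against 7.35 to 8.36 FPKM (-1.06, adjusted p = 0.00051, limma), while *Fasl* and *Lta* lay under the filter with at most 0.114 FPKM. *Tnfsf12*, which rose, had 29.8 to 33.3 FPKM in the WT group and 46.9 to 51.3 FPKM in the KO group (0.60, adjusted p = 0.00182, limma).

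Of the receptors, 1 of 10 was called as deposited (*Tnfrsf10b*, the mouse TRAIL receptor, which rose by 0.44, adjusted p = 0.0277, limma). With median-of-ratios scaling this call was lost (adjusted p = 0.147, limma) and *Tnfrsf1b*, the other TNF receptor, was called lower (-0.34, adjusted p = 0.0442, limma). At an unadjusted p-value under 0.05 (limma) 5 receptors were then lower. The share of all genes at that cut is not given here, so nothing is read from this count. *Tnfrsf1a*, the TNF receptor that carries a death domain, had 66.3 to 68.9 FPKM where labelled WT and 73.4 to 83.4 FPKM where labelled KO, a log2 difference of 0.19 (adjusted p = 0.107, limma), which equals the median of all genes. *Tlr4*, which can start necroptosis through the adaptor TRIF, had 1.47, 1.5 and 10.8 against 1.29, 11.4 and 1.35 FPKM, so that 1 library in each group stood far above the others and nothing can be read from it. Of the 7 adaptors none was called as deposited (0 also at an unadjusted p-value under 0.05, limma), *Fadd* and *Tradd* included, and 3 (*Traf2*, *Traf6* and *Ticam1*) were called lower with median-of-ratios scaling.

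The ubiquitin machinery held 3 genes that fell and 4 that rose of 10, and 5 that fell and 0 that rose with median-of-ratios scaling (1 higher at an unadjusted p-value under 0.05, limma), *Tnip1* and *Sharpin* being added to those that fell. *Tnfaip3*, the deubiquitinase A20 that restrains NF-kB and RIPK signalling, had 12.0, 19.6 and 15.9 FPKM where labelled WT and 8.40, 6.77 and 6.30 FPKM where labelled KO (-1.08, adjusted p = 0.00509, limma). *Peli1*, a ligase known to act on RIPK kinases, fell as well (-0.38, adjusted p = 0.0159, limma). The deubiquitinases *Otulin* (0.56, adjusted p = 0.0155) and *Cyld* (0.29, adjusted p = 0.0485), which trim chains in the receptor complex, and the caspase inhibitor *Xiap* (0.32, adjusted p = 0.0459) rose (limma), and none of these rises was called with median-of-ratios scaling. The linear ubiquitin ligase, whose subunits were looked up after the values were seen, changed unevenly: its catalytic subunit *Rnf31* fell from 8.92 ± 0.307 to 4.75 ± 0.451 FPKM (-0.85, adjusted p = 0.000793), *Rbck1* rose from 13.4 ± 0.468 to 18.1 ± 0.473 FPKM (0.41, adjusted p = 0.006), and *Sharpin* had 8.87 ± 0.859 and 8.28 ± 0.571 FPKM (-0.09, adjusted p = 0.526; limma, SD, n = 3). The rise of *Rbck1* was not called after median-of-ratios scaling, while *Sharpin* then was called lower (-0.31, adjusted p = 0.0466, limma).

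Of the kinase complexes 2 of 10 rose, *Tab2* (0.49, adjusted p = 0.0219), an adaptor of TAK1, and *Ikbke* (0.40, adjusted p = 0.0451; limma). Of the caspases with *Bid* and *Diablo* 2 of 6 rose, the executioner *Casp6* (0.63, adjusted p = 0.0139) and *Bid* (0.37, adjusted p = 0.0141; limma), the caspase-8 substrate that links to mitochondria, and none of either was called higher with median-of-ratios scaling (0 and 1 at an unadjusted p-value under 0.05, limma). *Tbk1*, a kinase that also restrains RIPK1, was then called lower (-0.55, adjusted p = 0.014, limma). Among the necroptosis regulators 1 of 4 fell. This was *Adar*, whose editing keeps endogenous RNA from ZBP1, with 20.9, 21.8 and 14.1 FPKM where labelled WT and 6.65, 6.73 and 5.40 FPKM where labelled KO (-1.51, adjusted p = 0.000987, limma). The sensor *Zbp1* and this restraint on it thus both were lower in the KO group, 24.2-fold and 3.03-fold in the means.

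**Figure D4:**
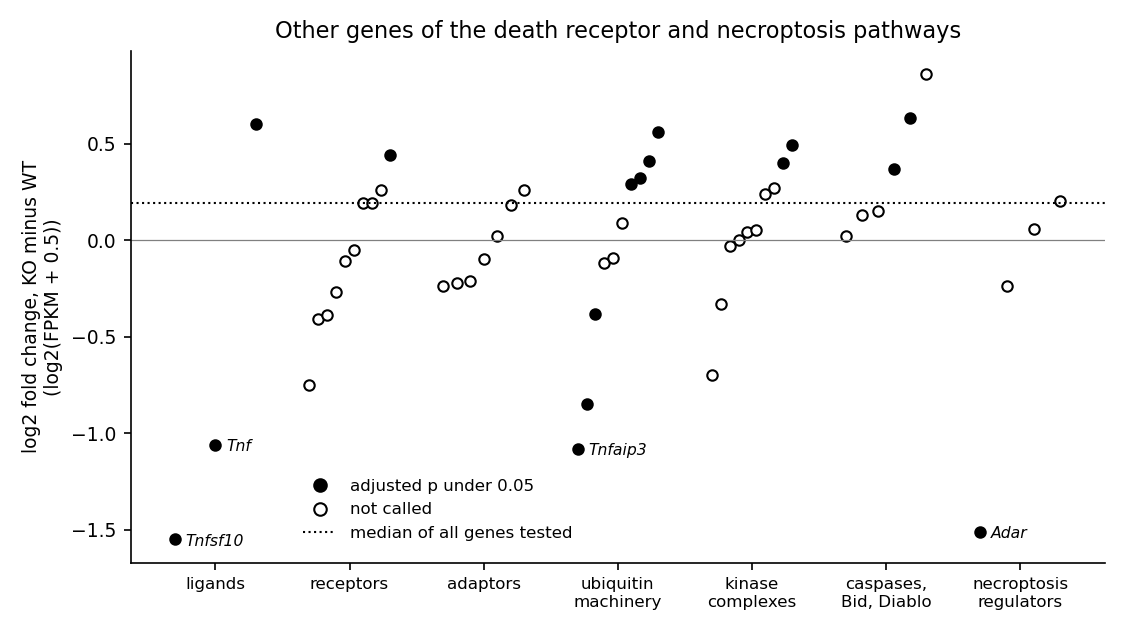
Log2 fold change (KO minus WT, on log2(FPKM + 0.5)) of the 50 other pathway genes that passed the filter, by role, with filled points at an adjusted p-value under 0.05 (limma) and a dotted line at the median of all genes, 0.19. *Tnfsf10*, *Adar*, *Tnfaip3* and *Tnf* are the genes called beyond a log2 change of 1, all of them lower, and most other points lie within 0.5 of 0.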

How the data were processed

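The authors deposited FPKM per gene for 6 libraries, and the submitters' processing notes name fastp 0.17.1, HISAT2 2.1.0, DESeq2 1.18.1 and R 3.4.3. The quantification tool, annotation and genome build are not given in the sources used here, and the labels and the methods name different extraction and library kits. FPKM depends on the total of each library, so that abundant genes that change shift all others. Of the identifiers, 55154 (99.7%) matched GENCODE M21 (GRCm38). In the 34186 genes with 1 transcript, low FPKM values fell on steps of 0.0499 to 0.0566 FPKM for a transcript of 1 kb, which points to similar depths if a step is 1 fragment, but only 36.6% to 44.0% of them lay within 0.1 of a whole multiple (20% by chance). Read counts were therefore not recovered, no count test was run, and the depth is not known beyond this. Among the named genes, depth and pseudocount bear most on those near or below 1 FPKM, such as *Traf1* and *Tnfsf10*, and on those under the filter. The columns sum to 302532 to 340717 FPKM.

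A pseudocount of 0.5 was added to FPKM before the log2 step, and the 13367 genes averaging 0.5 FPKM or more over the 6 libraries were compared by limma 3.58.1 (R 4.3.3, eBayes with trend, two-sided, group as the only term), with Benjamini-Hochberg adjustment over all of them. The script was tested on simulated data. Ratios were tested by exact permutation. Replicate numbers are shared by the groups, but no source ties them to a shared animal or day, so that no block was used. Named genes are the 10 members, pathway genes called with an absolute log2 fold change of at least 1 and groups that do not overlap, and those under the filter. *Tnfsf12*, *Tnfrsf10b*, *Tnfrsf1a*, *Tlr4*, *Fadd*, *Tradd*, *Rnf31*, *Rbck1*, *Sharpin*, *Peli1*, *Otulin*, *Cyld*, *Xiap*, *Tab2*, *Ikbke*, *Casp6*, *Bid*, *Tnfrsf1b*, *Traf2*, *Traf6*, *Ticam1*, *Tnip1*, *Tbk1*, *Cd14*, *Fcgr1*, *Mertk*, *Lyz2*, *Ltf*, *Ngp*, *Lcn2*, *P2ry12*, *Tmem119*, *Mmp8* and *Mmp9* were named after their values were seen. The members and lists were chosen with earlier results of these data known. Alternatives were other pseudocounts (0.1 and 1), filters, scalings, a robust variance, the replicate block, each library left out and other thresholds. Python 3.11.15, pandas 2.3.3, numpy 2.4.6 and matplotlib 3.10.9 were used for the remaining steps.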

Additional observations from a re-analysis of the deposited data

How the results depend on the processing

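The falls of *Zbp1*, *Mlkl* and *Cflar* passed an adjusted p-value under 0.05 (limma) under all 16 alternatives of scaling, filter, pseudocount, variance, block and library left out, with log2 fold changes of -4.52 to -3.92, -2.14 to -1.84 and -1.06 to -0.75. Leaving out 1 library gave 3 to 5 members that fell and 0 to 2 that rose, and 4 to 11 pathway genes that rose. Over all 13367 genes it gave 1047 to 1717 that fell and 2442 to 4228 that rose. The members that rose numbered 0 with median-of-ratios and with upper-quartile scaling (0 at an unadjusted p-value under 0.05 in both), 1 with quantile normalization and 1 without the filter. Pathway genes that fell numbered 13 with median-of-ratios, 13 with upper-quartile scaling and 11 with quantile normalization, and those that rose 1, 1 and 5, then 6 without the filter and 6 as TPM. Of all 13367 genes, those that fell and rose numbered 2259 and 2058, 2152 and 2122, and 1928 and 2426 with these 3 scalings. As TPM they numbered 1309 and 3477, and without the filter 1325 and 3180 of 28101. The counts of both lists are to be read beside these. The study's cuts, more than a 2-fold change with p under 0.05 before adjustment, were set on DESeq2 results. Applied here to the limma values, they gave 2 members that fell and 0 that rose, and 4 pathway genes that fell and 0 that rose. At an adjusted p-value under 0.01 (limma) these were 3 and 0 members and 5 and 2 pathway genes. Shares of all genes at these cuts are not given here. *Birc2* turned to -0.16, -0.15 and -0.16 with median-of-ratios, upper-quartile and quantile scaling, and lay between -0.02 and 0.09 with 1 library left out. *Birc3* was not called as TPM (adjusted p = 0.076), nor *Ripk1* (0.0621), while *Ripk2* was called higher as TPM (0.0247) and *Traf1* lower with quantile normalization (0.0265). The ratios kept their sign throughout. The replicate block gave 5 members that fell and 3 that rose, *Ripk2* being added (adjusted p = 0.0263), and 8 and 9 pathway genes. With the block 1681 of all genes fell and 4253 rose. Same-numbered libraries deviated from their group means with correlations of 0.12, 0.04 and 0.26, and not every library correlated best with its own number. The median-of-ratios and upper-quartile factors multiply all genes of a library alike by construction, which quantile normalization does not. The causes of the other changes were not tested.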
